A study of Danio rerio with 70 samples.

Results

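Interferon response genes are the genes that cells switch on after interferon binds its receptor. Interferons are signalling proteins released when a cell senses viral or misplaced nucleic acid. Their receptors act through JAK kinases and STAT and IRF transcription factors, which drive antiviral effectors, nucleic acid sensors and the pathway's own regulators. In the thymus, interferons are known to act on developing T cells and on the stromal and myeloid cells around them. The set described here was defined by symbol, from a list of 42 zebrafish genes, and 35 genes are described, of the 35117 counted. The symbols ifi44d, rigi, parp14, dtx3lb.1 and helz2 had no match.

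Polyadenylated RNA was sequenced from 70 zebrafish libraries of 13 groups, and levels are given as CPM, reads per 1000000 of the TMM-scaled library total. One laboratory sorted GFP-positive cells from fish that all carry lck:GFP, a reporter driven by a T-cell promoter. These were 5 healthy thymocyte libraries, preleukemic thymocytes of the lines hulk (3), otg (4) and shrek (2), and 3 preleukemic libraries of fish with human MYC under the rag2 promoter (hMYC). Sorted T-cell acute lymphoblastic leukaemias (T-ALL) came from hulk (9), otg (10) and shrek (10) fish, taken once GFP-positive cells filled 90% of the fish. The labels name no mutated gene for hulk, otg or shrek. The other laboratory gave 6 thymi dissected from rag2:GFP fish, 2 primary T-ALLs with human TLX1 under the rag2 promoter and 4 such tumours on a phf6 +/- background. A further 12 libraries were transplants, 6 of each genotype, of tumour cells into Rag2-/- fish. Every graft used the same number of cells. Transplants 2-2-1 and 2-2-3 of TLX1 tumour 2 were grown from its transplant 2-2, not from the primary tumour. The labels give a takeover of 90% for the primary TLX1 tumours and the transplants as well. All rag2:hTLX1 fish also carried rag2:GFP.

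Libraries held 8676867 to 56471528 reads assigned to genes, 8676867 to 11875689 in the preleukemic hulk libraries. Mitochondrial transcripts took 3.93% to 15.7% of reads in preleukemic hulk and over 20% in 3 libraries, healthy library 3 and hulk tumours 1 and 2. All 21 thymocyte markers examined had reads in the healthy and in each preleukemic group. Healthy and preleukemic libraries were deposited in separate tables, so the table and the healthy group cannot be told apart. In bulk RNA, fewer cells of a type and less RNA per cell cannot be told apart either.

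Preleukemic hulk thymocytes had higher levels of most interferon response genes than healthy sorted thymocytes. Of 34 members that passed the low-count filter, 18 rose and 2 fell (edgeR quasi-likelihood test, adjusted p under 0.05). Over all 19531 genes tested, 2.24% were called higher and 1.54% lower. The median log2 fold change was 1.33 over the 34 members and -0.07 over all genes. The remaining member, mxg, had too few reads to be tested. Preleukemic hulk library 1 stood apart from the other two: 11 of the 34 members were above every healthy library in library 1, against 24 in library 2 and 26 in library 3. Of all genes tested, 20.3% to 23.5% were above every healthy library in the same 3 libraries. There were 11 members above every healthy library in all 3 hulk libraries (cmpk2, gbp3, ifit9, ifit10, isg15, mxc, mxd, parp9, pkz, stat2 and trim25), a pattern held by 4.26% of all genes. For ifit10 library 1 exceeded healthy library 3 only slightly, at 0.528 against 0.505 CPM.

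**Figure D1:**
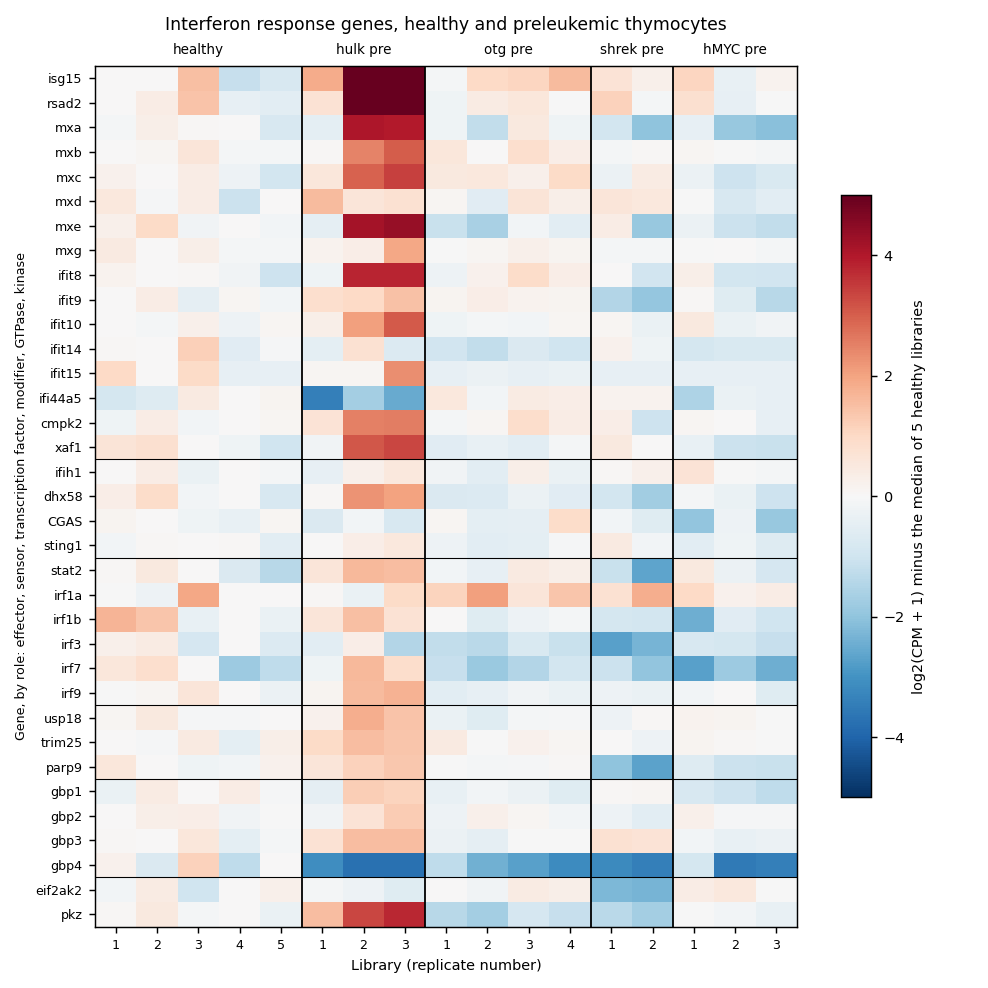
Colour gives log2(CPM + 1) minus the median of the 5 healthy libraries, for 35 genes (rows, grouped by role) in 17 libraries (columns), with the scale ending at -5 and 5. Red fills most rows in preleukemic hulk libraries 2 and 3, library 1 is much paler, and gbp4 and ifi44a5 are blue in all 3.

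The count of members called depended on those libraries. The number that rose was 20 without hulk library 1 and 5 without library 2 or without library 3, when isg15, mxc, pkz, rsad2 and trim25 remained in both cases. It was 13, 14, 18, 10 and 11 without healthy library 1, 2, 3, 4 or 5 in turn, 6 with limma voom, and 2 (isg15 and pkz) when the hulk and healthy libraries were fitted alone.

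Among the effectors, 10 of 15 tested rose and 1 fell. The gene isg15 encodes a ubiquitin-like protein that is coupled to other proteins. It measured 5.41, 5.57, 17.3, 1.91 and 2.68 CPM in healthy libraries 1 to 5 and 22.2, 674 and 466 CPM in preleukemic hulk libraries 1 to 3. All 3 hulk libraries were above all healthy ones, and libraries 2 and 3 were far above library 1. Its log2 fold change was 5.96 (SE 0.89, adjusted p = 0.00187, edgeR), the largest rise among the members. The gene rsad2 encodes viperin, an antiviral enzyme of the endoplasmic reticulum. Its levels were 1.46, 2.19, 5.62, 0.864 and 0.718 CPM in the healthy libraries and 3.06, 131 and 88.8 CPM in hulk. Library 1 lay within the healthy range, and the log2 fold change was 5.18 (SE 0.90, adjusted p = 0.00485, edgeR).

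The mx genes encode dynamin-like antiviral GTPases. The gene mxc measured 4.14, 3.38, 4.61, 2.64 and 1.29 CPM in healthy libraries and 5.44, 33.0 and 46.3 CPM in hulk. The groups did not overlap, and the log2 fold change was 3.19 (SE 0.52, adjusted p = 0.00228, edgeR). The genes mxa, mxb and mxe also rose, by log2 fold changes of 3.74, 4.77 and 3.67. The levels of mxb were low, at most 0.631 CPM in healthy and 7.62 CPM in hulk. The most abundant mx gene by CPM, mxd, had 182 to 562 CPM in healthy libraries and 1155, 591 and 647 CPM in hulk. Its highest value was in library 1, unlike the other mx genes, and it did not pass the test (log2 fold change 0.97, adjusted p = 0.103, edgeR).

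The ifit genes encode proteins that in mammals bind foreign RNA. Both ifit8 (log2 fold change 4.29) and ifit10 (4.17) rose, while ifit9, ifit14 and ifit15 did not pass the test (1.37, -0.30 and 1.66). The levels of ifit10 were low, 0.0455 to 0.505 CPM in healthy (1 to 8 reads) and 0.528, 4.165 and 9.55 CPM in hulk. It passed the low-count filter only with the hulk libraries counted, where it was high, so its call adds no separate support. The gene ifit15 reached 5.58 CPM in hulk library 3 and stayed below 0.5 CPM in the other two. The gene xaf1, named for its binding of an inhibitor of apoptosis in mammals, rose by 2.65 on the log2 scale. The gene cmpk2, a nucleotide kinase of mitochondria, rose by 2.63.

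The nucleic acid sensors were mostly not called. Of 4 tested, 1 rose: dhx58, which encodes LGP2, a helicase of the RIG-I family without a signalling domain. It measured 27.6, 41.98, 19.8, 21.6 and 12.2 CPM in healthy libraries and 22.5, 106 and 91.0 CPM in hulk. Library 1 lay within the healthy range and libraries 2 and 3 above all healthy ones (log2 fold change 1.62, SE 0.43, adjusted p = 0.0417, edgeR). The related RNA sensor ifih1 had a log2 fold change of 0.19, the DNA sensor CGAS had -0.51, and its partner sting1, at or under 1.29 CPM in all 8 libraries, had 1.02.

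Among the transcription factors, 2 of 6 rose. The gene stat2 encodes a signal transducer downstream of the type I interferon receptor. It had 143, 196, 139, 84.8 and 52.0 CPM in healthy and 209, 433 and 409 CPM in hulk. These groups did not overlap, though library 1 was close to healthy library 2 (log2 fold change 1.55, SE 0.42, adjusted p = 0.0476, edgeR). The gene irf9 encodes its DNA-binding partner, and it had 7.19, 7.88, 11.8, 7.41 and 5.84 CPM in healthy and 8.24, 24.3 and 27.16 CPM in hulk. Library 1 lay within the healthy range (log2 fold change 1.34, SE 0.34, adjusted p = 0.0345, edgeR).

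The other transcription factors did not pass the test. Their log2 fold changes were 1.02 for irf7 and -0.29 for irf3, which act downstream of the sensors, and 0.28 for irf1b and -0.69 for irf1a. Healthy libraries themselves differed widely in irf1b (460 to 1944 CPM) and irf7 (41.4 to 267 CPM). In both genes healthy libraries 1 and 2 were the highest of the 5.

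All 3 modifiers rose. The ubiquitin ligase trim25 measured 92.9, 89.0, 126, 65.1 and 114 CPM in healthy libraries and 183, 271 and 243 CPM in hulk, with no overlap (log2 fold change 1.26, SE 0.22, adjusted p = 0.00395, edgeR). The gene usp18 encodes the protease that removes ISG15 and damps receptor signalling. It had 7.70, 10.4, 6.82, 6.96 and 7.23 CPM in healthy and 8.45, 28.0 and 21.1 CPM in hulk, so that library 1 was inside the healthy range (log2 fold change 1.32, SE 0.32, adjusted p = 0.0294, edgeR). The gene parp9, of the ADP-ribosyltransferase family, had 35.1, 23.1, 20.01, 20.7 and 27.29 CPM in healthy and 35.9, 53.2 and 60.8 CPM in hulk. Library 1 exceeded healthy library 1 only slightly (log2 fold change 0.99, SE 0.26, adjusted p = 0.0380, edgeR).

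Of the kinases, pkz rose and eif2ak2 did not pass the test (log2 fold change -0.35). Both are relatives that shut down protein synthesis, eif2ak2 (PKR) after binding double-stranded RNA and pkz, a kinase of fish, through domains that bind Z-form nucleic acid. The levels of pkz were 8.08, 11.14, 7.13, 7.64 and 5.84 CPM in healthy and 23.9, 87.2 and 116 CPM in hulk. Every hulk library, library 1 included, was above all healthy ones. The log2 fold change was 3.29 (SE 0.39, adjusted p = 0.000135, edgeR), and pkz and isg15 were the members called higher under all 16 alternative settings.

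The guanylate-binding proteins (GBPs) are GTPases that act against microbes inside cells, and they did not move together. The gene gbp3 had 10.9, 10.5, 16.2, 7.18 and 9.81 CPM in healthy libraries and 18.2, 32.6 and 32.3 CPM in hulk, with no overlap (log2 fold change 1.36, SE 0.27, adjusted p = 0.00877, edgeR). The genes gbp1 and gbp2 did not pass the test (0.73 and 0.68). The gene gbp4 fell: it had 14.1, 6.88, 28.2, 4.41 and 12.2 CPM in healthy, 0.528 CPM in hulk library 1 and no read in libraries 2 and 3 (log2 fold change -5.95, SE 1.43, adjusted p = 0.0289, edgeR). Library 1 lay below every healthy library for gbp4 as libraries 2 and 3 did. The call for gbp4 held under 13 of 16 alternative settings. Its losses included those without hulk library 2 or 3 (adjusted p = 0.108 and 0.142, edgeR).

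The effector ifi44a5 was the other member that fell. It had 11.58, 13.8, 30.8, 22.2 and 24.4 CPM in healthy libraries and 1.16, 6.08 and 3.01 CPM in hulk. The groups did not overlap, and library 1 was the lowest (log2 fold change -2.58, SE 0.50, adjusted p = 0.00772, edgeR). The call held under 14 of 16 alternative settings, and 1 of the losses was without hulk library 3 (adjusted p = 0.0588, edgeR). Sequences of other ifi44 genes were not compared with it, and reads that such genes may share were not resolved here.

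**Figure D2:**
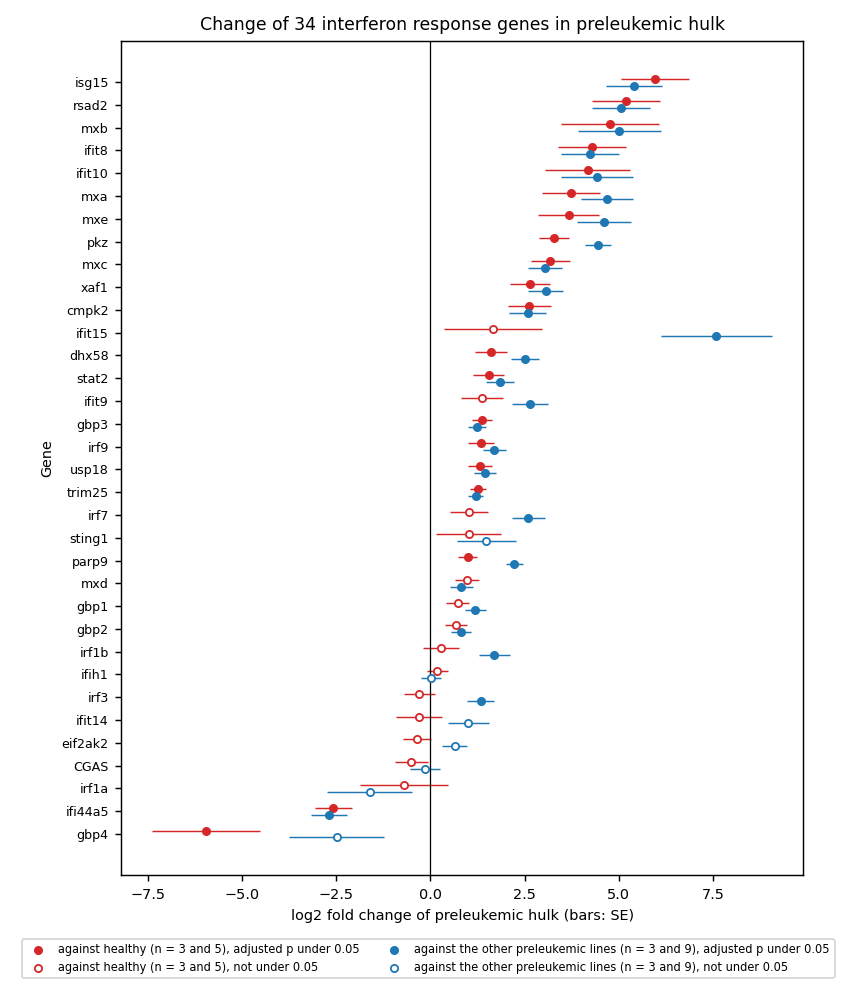
Points give the log2 fold change of preleukemic hulk (3 libraries) for 34 genes against 5 healthy libraries (red) and against the mean of the otg, shrek and hMYC preleukemic lines (blue, 9 libraries). Bars are SE and filled points have an adjusted p under 0.05. Most points lie to the right of 0, and gbp4 and ifi44a5 to the left.

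Set against the mean of the otg, shrek and hMYC preleukemic lines, which were deposited in the same table, hulk thymocytes had 26 members higher and 1 lower. Over all genes, 20% were called higher and 10.6% lower in this comparison. The median log2 fold change was 1.77 over the members and 0.04 over all genes. The count of members called in either direction stayed between 24 and 27 when any 1 preleukemic library was left out. The change of pkz was 4.46 (SE 0.35, adjusted p = 2e-06, edgeR), of parp9 2.23, of mxa 4.69 and of dhx58 2.51. The pkz levels were 1.63 to 3.77 CPM in otg, 1.695 to 2.42 CPM in shrek and 5.61 to 7.57 CPM in hMYC, all below hulk library 1. Both pkz (in otg and shrek) and parp9 (in shrek and hMYC) were called lower in those lines than in healthy cells. Their folds here are therefore not wholly a rise over healthy cells.

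Several members that were not called against healthy cells were called here: irf7 (2.60), irf1b (1.69), irf3 (1.34), ifit9 (2.64), ifit15 (7.59), gbp1 (1.19), gbp2 (0.81) and mxd (0.82). Some of them were lower in another line than in healthy cells: irf7, irf1b and gbp1 in hMYC, and irf3 and ifit9 in shrek. Their calls here are therefore not by themselves a rise over healthy cells. The gene irf1b had 902 to 1715 CPM in hulk, 460 to 1944 CPM in healthy and 108 to 401 CPM in hMYC. The fold of ifit15 rests on very low levels, with no read in shrek or hMYC and at most 0.0838 CPM in otg. The member ifi44a5 was lower in hulk (-2.70), with 20.3 to 32.7 CPM in otg, 25.1 and 25.4 CPM in shrek and 6.95 to 17.2 CPM in hMYC. The member gbp4 was not called (-2.48, adjusted p = 0.146, edgeR), and it was under 1 CPM in 6 of the 9 libraries of the other lines. The members eif2ak2, sting1, ifit14, irf1a, CGAS and ifih1 were not called either.

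The interferons and their receptors were measured beside their targets. Of 11 such genes tested, none was called between preleukemic hulk and healthy cells. Against the other preleukemic lines 4 of them were higher, where 20% of all genes were. The type II interferon gene ifng1 measured 3.17, 114 and 58.0 CPM in hulk libraries 1 to 3 and 0.479 to 21.1 CPM in healthy ones (log2 fold change 2.61, adjusted p = 0.137, edgeR). Its relative ifng1r had 8.34, 744 and 341 CPM in hulk and 0.431 to 99.5 CPM in healthy. The type I gene ifnphi2 had 0.950, 38.4 and 15.7 CPM in hulk and at most 3.63 CPM in healthy, and ifnphi1 had 1.37, 5.83 and 6.66 CPM and at most 1.97 CPM. In all 4 genes hulk libraries 2 and 3 were above every healthy library and library 1 was not. These 4 were picked after their values were seen, and levels of the other genes of this list are not given. The share of all genes with this pattern is not given either. Over the 11 genes the median log2 fold change against healthy cells was 0.67. Against the other preleukemic lines the log2 fold changes were 8.99 for ifnphi2, 5.84 for ifng1, 7.48 for ifng1r and 1.74 for ifnphi1. The gene ifnphi2 was at most 0.3095 CPM in those lines, and ifng1 is also one of the cytotoxic markers described below.

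Of 16 kinases and adaptors that lead to or from interferon, TBK1, the kinase that activates IRF3, was the 1 called against healthy cells. It had 218, 304 and 301 CPM in hulk and 103 to 186 CPM in healthy (log2 fold change 1.05, adjusted p = 0.0112, edgeR). None of 9 other IRF genes and none of 14 negative regulators was called against healthy cells. Of 37 further interferon-induced genes tested, 9 rose and none fell, with a median log2 fold change of 0.56. Among these were sp100.1 (1.56), mov10b.1 (2.43), ifi27.1 (4.29) and the galectin gene lgals9l1 (2.69). The gene ifi27.1 had 4.91, 137 and 113 CPM in hulk and 1.27 to 7.20 CPM in healthy, so that library 1 again lay within the healthy range. Against the other preleukemic lines 5 of 16 kinases and adaptors, 5 of 9 other IRF genes, 2 of 14 negative regulators and 23 of 37 further induced genes were higher. In the same order, 1, 1, 1 and none were lower. Over all genes, 20% were called higher and 10.6% lower there, and the share of negative regulators called higher was below that. Outside the list, 24 genes of the mx, ifit, ifi44, parp14, helz2 and dtx3l families were tested, picked after their names were seen. Of these, 7 rose against healthy cells and none fell. For this and the other counts against healthy cells, 2.24% of all genes were called higher and 1.54% lower.

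Markers of other cell types also differed between these libraries, and their part in the results was not tested. Summed over 18 cytotoxic and natural killer markers, hulk libraries 1 to 3 had 586, 970 and 678 CPM, healthy libraries 96.4 to 808 CPM and the other preleukemic libraries 27.44 to 222 CPM. The 10 neutrophil markers summed to 356, 1594 and 1012 CPM in hulk and 167 to 1313 CPM in healthy, and the 25 macrophage markers to 432, 640 and 478 CPM and 353 to 743 CPM. The sums ranged from 61.1 to 93.3 CPM in hulk and 11.01 to 76.3 CPM in healthy for 11 B-cell markers, and from 185 to 244 CPM and 28.8 to 237 CPM for 12 erythroid markers. For 12 dendritic markers they were 298 to 403 CPM in hulk and 110 to 905 CPM in healthy. For 12 thymic epithelium markers they were 116 to 538 CPM and 52.1 to 890 CPM, and for 14 endothelium and fibroblast markers 58.2 to 168 CPM and 25.9 to 361 CPM.

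The 21 thymocyte markers summed to 9724, 7124 and 5019 CPM in hulk libraries 1 to 3 and 7268 to 12250 CPM in healthy ones, so libraries 2 and 3 fell below the healthy range. Against healthy cells, 3 thymocyte markers (lck, cd8b and 1 of the 2 genes named CCR9) and the cytotoxic marker gzma were lower and no marker was higher. Over all genes, 2.24% were called higher and 1.54% lower. Against the other preleukemic lines, 14 of 17 cytotoxic, 7 of 9 neutrophil, 9 of 12 erythroid, 11 of 14 endothelium and fibroblast, 6 of 12 dendritic, 5 of 25 macrophage, 4 of 10 B-cell, 4 of 12 thymic epithelium and 2 of 21 thymocyte markers were higher in hulk. In the same comparison 11 thymocyte, 3 macrophage, 1 cytotoxic and 1 thymic epithelium marker were lower. Over all genes, 20% were called higher and 10.6% lower there. The share of macrophage markers called higher was about that over all genes, and that of thymocyte markers was below it. The thymocyte markers had a median log2 fold change of -0.92 in hulk. A single macrophage marker, one of the genes named MPEG1, had no read in hulk, and no other marker was at 0 there.

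The other preleukemic lines did not share the rise. In otg, 2 of 34 members were called against healthy cells, both lower: pkz (-1.58, SE 0.38) and ifit14 (-2.11, SE 0.59). Of 19531 genes tested, 5.33% were called, 699 lower and 342 higher. In hMYC, 4 members (11.8%) were lower and none higher: irf7 (-2.18), irf1b (-1.80), gbp1 (-1.06) and parp9 (-1.02). Of the 19531 genes, 19.9% were called in hMYC, 2214 lower and 1682 higher. The hMYC levels of irf7 were 21.9, 42.2 and 26.7 CPM. In shrek, with 2 libraries, 7 members (20.6%) were lower and gbp3 was higher, and 38% of all 19531 genes were called (4036 lower, 3388 higher). The lower ones included parp9 (-2.53), eif2ak2 (-3.63), irf3 (-2.92), ifit9 (-3.41) and pkz (-1.78). Both shrek libraries had 0.449 and 0.379 CPM of eif2ak2, below every healthy library. They were the deepest of the series, at 56471528 and 47598816 reads. No shrek member was called higher with DESeq2's size factors or test, library size alone, the compared groups alone, or without either shrek library. With library size alone 12 shrek members were lower, and the all-gene median log2 fold change was -0.82, against -0.27 with TMM. A median of 3.5 members in otg, 2.5 in shrek and 1 in hMYC lay above every healthy library, and the highest count in a library was 5, in otg. These are shares below those over all genes tested, of which 15.4% to 16.4% lay above every healthy library in otg, 24.7% to 25.1% in shrek and 20.3% to 21.1% in hMYC. From 5 to 13 members in an otg, 11 to 17 in a shrek and 8 to 17 in an hMYC library lay below every healthy library. Of all genes tested, 12.0% to 15.5% lay below every healthy library in otg, 32.1% to 33.5% in shrek and 23.4% to 26.1% in hMYC.

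**Figure D3:**
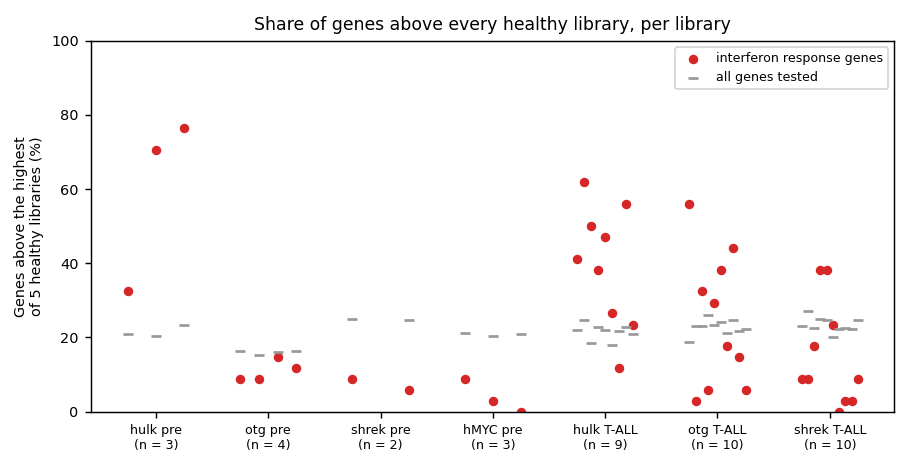
Each red point is a library, with the percent of 34 interferon response genes above the highest of 5 healthy libraries, and each grey dash is the same percent over all genes tested. Preleukemic hulk libraries 2 and 3 stand at 70.6% and 76.5%, and T-ALL libraries spread from 0.0% to 61.8%. The 61.8% is hulk tumour 2, in which 61.4% of reads were mitochondrial.

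In hulk T-ALL, 8 of 35 members were called against healthy cells, 5 higher and 3 lower, while 13.7% of all genes were called. The gene isg15 ranged from 39.9 to 198 CPM (median 114) over 9 tumours, all above the highest healthy library (17.3 CPM). Its log2 fold change was 4.36 (SE 1.18, adjusted p = 0.014, edgeR). The genes mxc (median 15.2 CPM), pkz (22.3 CPM), mxb (2.41 CPM) and ifit10 (0.843 CPM) were higher as well. Of the 9 tumours, 7 for mxc, 8 for pkz, 5 for mxb and 8 for ifit10 were above every healthy library. Some members that rose in preleukemic hulk did not pass the test in the tumours although most tumours exceeded healthy cells, such as mxa, above all healthy libraries in 8 of 9 tumours and at 0.329 CPM in the other, tumour 7.

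The lower members in hulk T-ALL were ifi44a5 (-4.50), gbp4 (-4.54) and ifih1 (-1.47). The gene ifi44a5 had no read in 6 of 9 tumours, under 0.1 CPM in 2 and 6.93 CPM in tumour 4. In the otg and shrek tumours it ranged from 5.101 to 44.9 CPM and from 8.01 to 56.9 CPM, so that near absence was seen in hulk tumours among these lines. The gene gbp4 was at most 1.37 CPM in hulk tumours. Without the libraries over 20% mitochondrial reads 4 members were called (1 higher), and with healthy library 1, 2, 4 or 5 left out 3 were called (1 higher each time).

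Against preleukemic hulk, no member was called in hulk T-ALL with edgeR, while 0.206% of all genes were called. Before adjustment 9 members had p under 0.05, all lower in the tumours, led by irf7 (-1.88, adjusted p = 0.095), mxe (-3.08) and ifih1 (-1.64). That number was 12, 4 and 6 without preleukemic hulk library 1, 2 or 3 in turn, again all lower. The share of all genes with p under 0.05 before adjustment was not counted. DESeq2 and limma voom each called 1 member, lower. The median log2 fold change was -0.86 over 35 members and 0.14 over all genes.

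**Figure D4:**
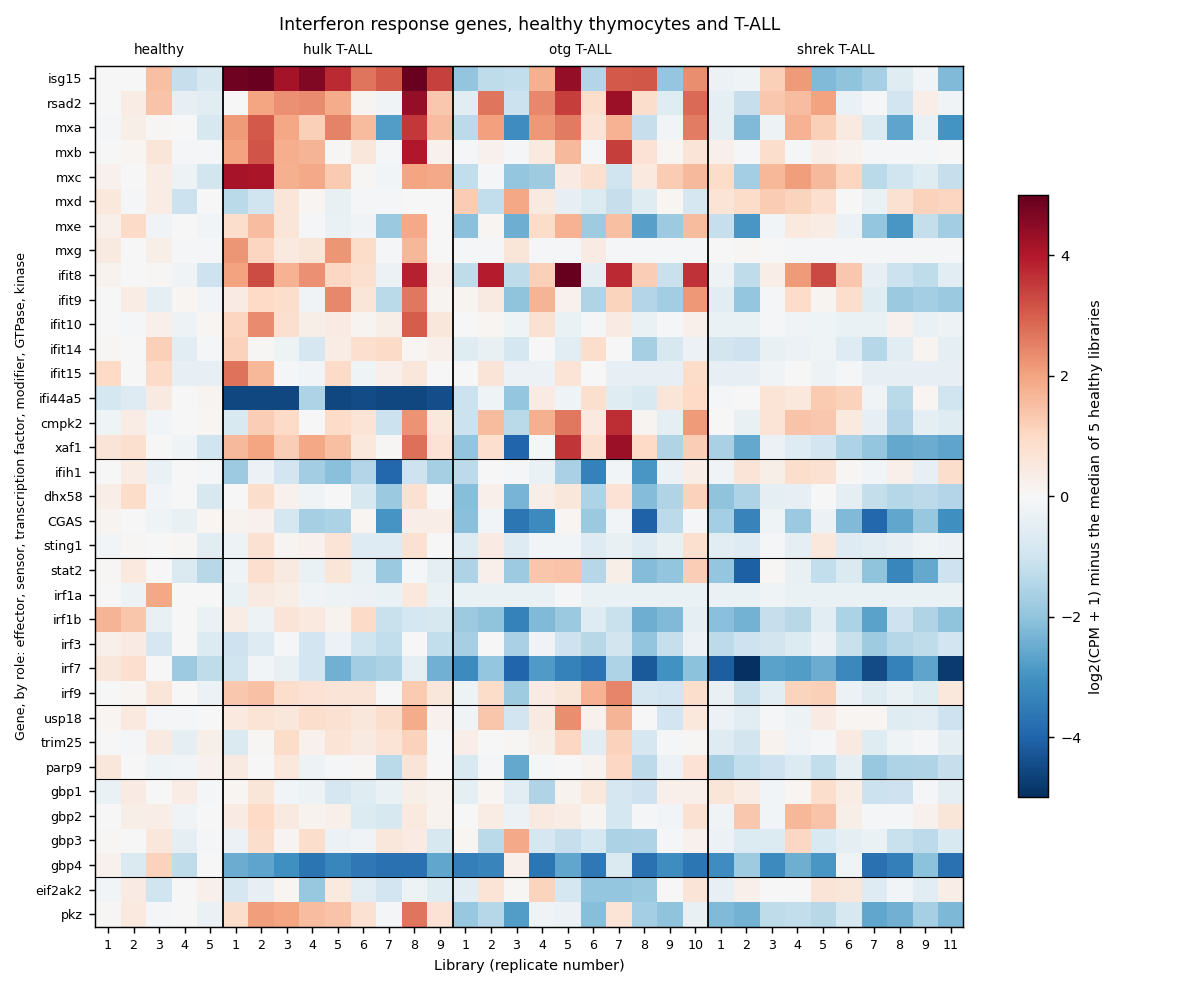
Colour gives log2(CPM + 1) minus the median of 5 healthy libraries, for 35 genes (rows, grouped by role) in healthy and T-ALL libraries (columns), with the scale ending at -5 and 5. Rows differ strongly between tumours of 1 line, irf7 is blue in otg and shrek tumours, and ifi44a5 is blue in hulk tumours.

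Tumours of the same line differed widely from each other. In otg T-ALL, 5 members were called against healthy cells (28% of all genes): ifit8 (4.105) and cmpk2 (2.32) were higher, and irf7 (-2.60), irf1b (-2.16) and irf1a (-5.17) lower. The fold of irf1a rests on low healthy levels, 0.255, 0.0626, 3.91, 0.273 and 0.287 CPM in healthy libraries 1 to 5. The highest of these was in healthy library 3, which had 22.0% mitochondrial reads. Neither higher member was called with library size alone, without the low-count filter, with limma voom, with the otg and healthy groups fitted alone, with the replicate block, or without healthy library 1, 2, 4 or 5. The gene ifit8 had 29.1 to 75.2 CPM in otg tumours 2, 5, 7 and 10 and at most 4.76 CPM in the other 6. The gene mxa was 29.6 to 55.3 CPM in otg tumours 2, 4, 5, 7 and 10, all above the healthy range (4.31 to 10.4 CPM), and 0.0797 to 13.8 CPM in the other 5. Tumours were ranked for 12 members called in preleukemic hulk (isg15, mxc, rsad2, dhx58, irf9, stat2, trim25, usp18, parp9, gbp3, gbp4 and pkz). Tumour 5 was among the 5 highest otg tumours for 11 of them, tumours 7 and 10 for 10 each, and tumours 2 and 4 for 8 each. For any gene 5 of the 10 otg tumours hold these ranks, and the same count over all genes was not made. The number of members above every healthy library ran from 1 of 34 in otg tumour 1, where 24 lay below every healthy library, to 19 in otg tumour 10, where 5 did. Over all genes tested, 23.1% and 18.8% lay above every healthy library in these tumours, and 31.6% and 24.8% lay below.

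In shrek T-ALL, 6 members (17.1%) were called, all lower, with 30.2% of all 21831 genes called (4730 lower, 1863 higher). The members were irf7 (-3.27), irf1b (-2.14), irf1a (-5.71), pkz (-2.14), parp9 (-1.29) and irf3 (-0.95). As in otg, the fold of irf1a rests on low healthy levels. The gene irf7 ranged from 1.98 to 26.0 CPM (median 14.3) over 10 tumours, all below the lowest healthy library (41.4 CPM). The gene pkz ranged from 0.427 to 4.01 CPM, likewise below all healthy libraries (5.84 to 11.14 CPM). Shrek tumours 4 and 5 had the most members above every healthy library, 13 each of 34, with 8 below, and tumour 7 had none, with 22 below. Over all genes tested, 25.1%, 24.7% and 22.3% lay above every healthy library in tumours 4, 5 and 7, and 32.8%, 32.0% and 32.7% lay below. In hulk T-ALL the number ran from 4 in tumour 7 (11.8% of members, 21.7% of all genes) to 21 in tumour 2 (61.8% and 24.7%), with 16 and 2 members below every healthy library. Mitochondrial transcripts took 61.4% of the reads of hulk tumour 2. Of all genes tested, 43.2% and 27.9% lay below every healthy library in hulk tumours 7 and 2.

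The summed cytotoxic markers also varied, from 20.8 to 1602 CPM in hulk, 3.95 to 868 CPM in otg and 6.89 to 223 CPM in shrek tumours. The summed macrophage markers ran from 336 to 706 CPM, 104 to 924 CPM and 87.3 to 434 CPM. Their part in the tumour differences was not tested.

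Compared with their own preleukemic stage, otg tumours had 3 members called (12.1% of all genes): irf1a (-6.46) and irf1b (-1.26) were lower and usp18 (1.35) higher. Shrek tumours had 4 called (15.4% of all genes): irf1a (-7.10) and irf7 (-2.03) were lower, and eif2ak2 (3.79) and irf3 (1.95) higher. The level of irf1a, a transcription factor of the interferon response, was 0.929 to 4.32 CPM in otg and 1.15 and 3.45 CPM in shrek preleukemic cells. It had no read in 9 of 10 otg and 9 of 10 shrek tumours. Without any 1 of the preleukemic otg or shrek libraries, 1 member was called in each of these comparisons, a lower one each time. The higher calls (usp18 in otg, eif2ak2 and irf3 in shrek) were thus lost there. In otg tumours, no member was called higher under any other alternative except DESeq2's test.

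In TLX1 T-ALL against dissected thymus, 10 of 34 members were called, 4 higher and 6 lower, while 56% of all genes were called. The median log2 fold change was 0.06 over the members and -0.19 over all genes. Scaled by library size alone, the all-gene median was -1.45 and 1 member was higher and 23 lower, so the directions of the smaller differences depend on the scaling. The widest gap was that of irf1a, with 54.4 to 66.2 CPM (mean 59.7 ± 3.88, SD, n = 6) in the thymi and at most 0.423 CPM in the 6 primary tumours (log2 fold change -9.17, SE 0.61, adjusted p = 5.54e-07, edgeR). In the healthy sorted thymocytes of the other laboratory irf1a was 0.0626 to 3.91 CPM. Laboratory and dissection cannot be told apart there. The summed thymic epithelium markers were 1841 to 2555 CPM in dissected thymi and 77.9 to 617 CPM in the primary tumours, and the part of such cells was not tested.

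The higher members in TLX1 T-ALL were ifit15 (5.02), ifit8 (2.15), ifit9 (2.08) and isg15 (1.89). For isg15 the thymi had 4.12 to 9.91 CPM, TLX1 tumours 1 and 2 had 57.5 and 17.5 CPM, and the phf6 +/- tumours had 1.25 to 22.9 CPM. These ranges overlap through phf6 +/- tumour 4. The levels of the 3 ifit genes were low, at most 4.76 CPM. Besides irf1a, the lower members were mxc (-1.92), ifih1 (-1.33), CGAS (-1.07), irf7 (-0.80) and gbp2 (-0.62). The gene mxc was 17.2 to 29.0 CPM in the thymi and 0.586 to 18.1 CPM in the tumours, where TLX1 tumour 1 alone reached the thymus range.

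No member was called between phf6 +/- and the other TLX1 primary tumours with edgeR (0.0405% of all genes called). Before adjustment 9 of 34 had p under 0.05, all lower in phf6 +/- tumours, led by CGAS (-2.73, adjusted p = 0.115) and mxa (-2.06, adjusted p = 0.188). The direction depended on TLX1 tumour 1. The median log2 fold change over the members tested was -0.60, but -0.03 without TLX1 tumour 1 and -0.87 without TLX1 tumour 2. CGAS was 4.18 and 6.54 CPM in the 2 other tumours and 0.170 to 1.96 CPM in the 4 phf6 +/- tumours. DESeq2 called 2 members, both lower. With transplants summed by tumour of origin and paired with it, no member was called either (0.13% of all genes), 2 had p under 0.05 before adjustment (mxd and mxb, both higher), and DESeq2 called 1. The share of all genes with p under 0.05 before adjustment was not counted for these 2 comparisons. The gene ifi44a5 differed between graft lines: it was 0.341 to 0.591 CPM in the 3 transplants of phf6 +/- tumour 2, which itself had 2.31 CPM, and 21.1 to 22.1 CPM in those of phf6 +/- tumour 1, which had 10.6 CPM.

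**Figure D5:**
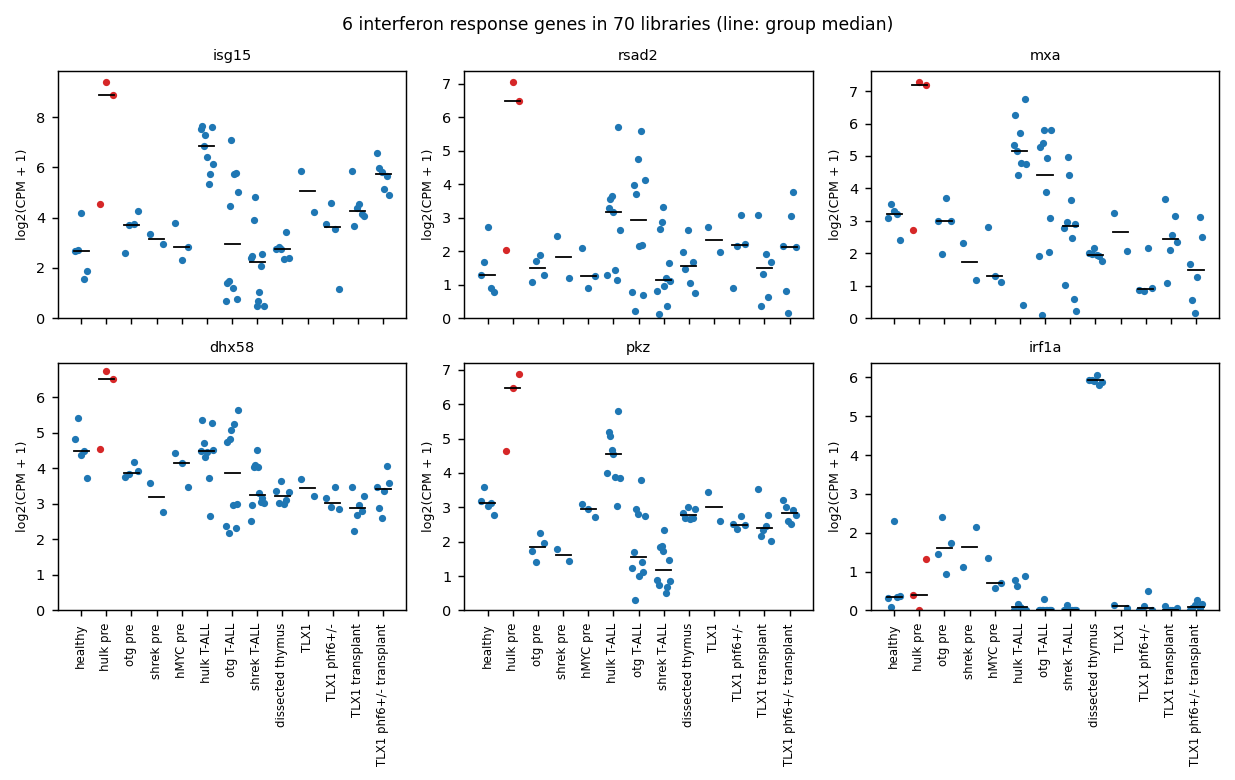
Points give log2(CPM + 1) of 6 genes in each of 70 libraries by group, with a line at the group median and preleukemic hulk in red. For isg15, rsad2, mxa, pkz and dhx58 preleukemic hulk has the highest median, and irf1a is high in dissected thymus alone.

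Across all 13 groups, preleukemic hulk had the highest median level of isg15 (466 CPM), followed by hulk T-ALL (114 CPM), transplanted phf6 +/- tumours (51.9 CPM) and TLX1 tumours (37.5 CPM). For isg15 the preleukemic hulk and hulk T-ALL libraries overlapped, at 22.2 to 674 CPM and 39.9 to 198 CPM. Summed over the 35 members, levels were 2846 to 5350 CPM in preleukemic hulk, 1231 to 3253 CPM in healthy sorted thymocytes, 1084 to 2478 CPM in hulk T-ALL and 490 to 608 CPM in dissected thymus. The sum is dominated by abundant members such as irf1b and mxd, and hulk library 1 lay below the highest healthy library in it.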

How the data were processed

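The authors deposited raw read counts per gene for 70 libraries of polyadenylated RNA. Per the submitters' processing notes, STAR and the GRCz10 build were used, and their versions are not given in the sources used here. Rows that name no gene took 17.9% to 52.6% of the counts in the 46 libraries of sorted cells and were left out, and 9 columns without a matching sample were not used. Gene symbols came from a reference list of Ensembl IDs and matched 27000 of 35117 genes.

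Counts were fitted with edgeR 4.0.16 in R 4.3.3 (TMM scaling, filterByExpr at its settings of 10 reads and 15 in total, robust quasi-likelihood F-test). The healthy and preleukemic groups of sorted cells shared 1 fit for the comparisons among them. All groups of sorted cells shared another fit for the comparisons with tumours. The dissected thymi and primary TLX1 tumours had a fit of their own, without transplants. P-values were adjusted by Benjamini-Hochberg over all genes tested, with a threshold of 0.05. The SE is the log2 fold change divided by the square root of F. Transplant reads, those grown from another transplant included, were summed per tumour of origin, which was the block. CPM use TMM-scaled totals over all libraries. The scripts were tested on simulated data.

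All members described are named, and part of the list is not reported here. Values by library are given for up to 3 called members of each role with the smallest adjusted p, and for others chosen after their values were seen. The members and the pathway and marker lists were chosen with earlier results of these data known. Of 110 pathway names 19 had no match, and of 143 marker names 18 had none. No pair of replicates (201 compared) held identical values. Where the labels do not say that replicates came from separate fish, p-values describe the variation among the libraries, which may be technical. Alternatives were DESeq2 1.42.0 size factors and test, library size alone, no filter, limma 3.58.1 voom, the compared groups alone, a replicate block, and libraries left out. Promoter and protein sequences were not used here.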

Additional observations from a re-analysis of the deposited data

Results flagged for a closer look

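Of 108 combinations of 12 members with groups of 4 to 10 libraries, 19 held a library far from the others by Dixon's criterion, each time the highest. The nominal rate of about 5% holds for independent, normally distributed values. The CPM were not log-transformed and the members share libraries, so that rate is no measure of chance here. The first transplant of TLX1 tumour 1 accounts for 6 of the 19: it had 56.4 CPM of isg15, 21.4 CPM of mxc, 7.53 CPM of rsad2, 21.2 CPM of irf9, 7.90 CPM of usp18 and 10.6 CPM of pkz. Its TMM factor, 0.381, was the lowest of the 70 libraries, and a low factor raises every CPM of a library. Before scaling it held 107 reads of usp18, against 122 in transplant 2-1 of TLX1 tumour 2, and 143 of pkz, against 167 in transplant 2-2-1. For the other genes it held the most reads of the 6 transplants of its genotype before scaling too. These were 764 of isg15, 290 of mxc, 102 of rsad2 and 287 of irf9. The part of the scaling in the 6 CPM values was not tested. Among tumours, hulk tumour 8 stood apart for rsad2 (51.4 CPM) and usp18 (28.8 CPM), and otg tumour 5 for isg15 (134 CPM). Otg tumour 3 stood apart for gbp3 (42 CPM) and gbp4 (14.7 CPM), and otg tumour 7 for pkz (12.98 CPM). Shrek tumour 4 stood apart for isg15 (27.34 CPM) and gbp3 (22.3 CPM), shrek tumour 6 for gbp4 (10.5 CPM), and phf6 +/- TLX1 tumour 3 for parp9 (17.5 CPM). Among normal samples, healthy library 3 had 17.3 CPM of isg15, healthy library 2 had 10.4 CPM of usp18, and dissected thymus 10 had 9.91 CPM of isg15.

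The change in preleukemic hulk differed from the mean of the otg, shrek and hMYC preleukemic lines for 27 members by edgeR's quasi-likelihood test, 26 higher and 1 lower.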

How the results depend on the processing

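The count of members called was within 1.5 times its reported value except as follows, and the cause was not tested. With DESeq2's test it was 12 for shrek T-ALL, 9 for otg T-ALL, 8 for preleukemic hMYC, 4 for preleukemic otg, 7 for shrek and 6 for otg tumours against their preleukemic stage, 2 for phf6 +/- tumours, and 1 each for transplants and for hulk tumours against preleukemic hulk. DESeq2's size factors gave 11 for shrek T-ALL. Library size alone gave 24 for TLX1 tumours against thymus, 4 for hulk T-ALL, 2 for shrek tumours against preleukemic shrek and 1 for preleukemic otg. Without the filter there were 5 for hulk T-ALL, 3 for otg T-ALL, and 1 each for preleukemic otg and transplants. Limma voom gave 8 for preleukemic hulk, 0 for preleukemic otg and 1 for hulk tumours against preleukemic hulk. The compared groups alone gave 3 for preleukemic hulk, 2 for otg T-ALL and 1 for otg tumours against preleukemic otg. Without libraries over 20% mitochondrial, hulk T-ALL had 4.

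With the replicate number as a block the count was 6 for preleukemic hulk, 5 for hulk T-ALL and 3 for otg T-ALL. The deviations of same-numbered libraries from their group means had a median correlation of 0.007 over 27 pairs. Over 86 pairs with different numbers it was 0.006. Deviations within a small group cancel out, and the same libraries recur in several pairs. This check therefore cannot decide whether the numbers pair the samples.

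Leaving out 1 library at a time, the count ranged from 5 to 22 for preleukemic hulk, 0 to 3 for otg, 4 to 11 for shrek and 0 to 5 for hMYC, each against healthy cells, and from 24 to 27 for hulk against the other lines. It ranged from 3 to 6 for hulk, 3 to 5 for otg and 5 to 7 for shrek T-ALL against healthy cells. Against the preleukemic stage it was 0 for hulk, 1 for otg and 1 for shrek throughout. It ranged from 9 to 11 for TLX1 tumours against thymus and from 0 to 3 for phf6 +/- tumours, and was 0 for transplants.

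Of 6528 values of single members under alternatives, 6104 stayed on their side of the threshold, 275 lost and 137 gained a call, and 12 reversed, all in TLX1 tumours against thymus. With library size alone these were -1.09 for irf9, -1.11 for mxa, -1.002 for irf1b, -1.16 for pkz, -1.06 for irf3, -1.22 for usp18, -1.12 for dhx58 and -0.83 for trim25. With phf6 +/- tumours alone irf1b was -0.53. Leaving out 1 TLX1 tumour gave -0.85 and 0.54 for irf9, -0.86 and 0.65 for irf1b, and 0.91 and -0.93 for mxd, without tumour 1 and tumour 2 in turn. Promoter motif alternatives were not run. Depth limits members with few reads in many libraries, such as mxb, mxg, sting1, gbp4 and several ifit genes.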
